A study of Mus musculus with 3 samples.

Results

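The 10 zinc finger genes described here, Zfp160, Zfp51, Zfp53, Zfp52, Zfp948, Zfp760, Zfp229, Zfp820, Zfp942 and Zfp944, lie inside the stretch of mouse Chr 17 that is missing from the tw18 chromosome. They were given as a list of symbols, with position in the interval as the rule, out of the 23421 genes of the expression table. The list was drawn up with results of these data known and holds 10 of the 20 zinc finger genes (symbols that start with Zfp) between the mapped breakpoints. The 10 not listed include Zfp677, Zfp947, Zfp40 and Zfp13, which were above 75% of wild type in tw18/+, and Zfp213, which was above wild type in tw18/tw18, so counts over the list do not stand for the whole interval. RNA was sequenced from embryos at embryonic day 6.5, in 3 libraries. The labels give the strain as 129/SvEv, while the study allows for a background that was not inbred and differed between its embryos. The wild-type library carries 2 copies of the interval, tw18/+ carries 1 copy, and tw18/tw18 carries none. The tw18 chromosome is a recombinant of the t haplotype, a variant form of proximal Chr 17, and its deletion also removes Ppp2r1a, the scaffold subunit of protein phosphatase 2A. Per the labels of all 3 samples the embryos came from tw18/+ parents, so the mothers carried 1 copy of the interval. The labels name the tissue as epiblast, while the methods of the study describe the embryo proper, that is the epiblast with its visceral endoderm. The number of embryos behind a library was not given in the sources used here. With 1 library for each genotype, no difference has a replicate check and no p-value is given.

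C2H2 zinc finger genes form the largest family of DNA-binding factors in mammals, and many lie in clusters of tandem copies that arose by duplication. Each finger is a short fold in which a pair of cysteines and a pair of histidines hold a zinc ion, and a row of fingers reads a row of bases. Many members carry a KRAB domain, which binds the corepressor Trim28 (KAP1) and brings in histone deacetylases and the H3K9 methyltransferase Setdb1. In early embryos this machinery is best known for silencing retrotransposons and for keeping the methylation of imprinted genes.

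The values are FPKM, in which the fragments on a gene are scaled to transcript length and library size, so that levels can be compared between genes. The FPKM per fragment of a 1 kb transcript was estimated from the spacing of low values as 0.0683 in wild type, 0.0482 in tw18/+ and 0.0488 in tw18/tw18. This corresponds to 1.42 times the wild-type depth in tw18/+ and 1.40 times in tw18/tw18. The ratios of the 10 genes carry a 95% exact binomial interval from the fragments so estimated. These intervals hold the error of counting alone, because copies made by PCR are not separate molecules, and they leave out the spread between embryos. Ppp2r1a had FPKM values of 146 in wild type, 81.7 in tw18/+ and 12.8 in tw18/tw18, the order of the labels. In bulk tissue, fewer cells of a type and less RNA per cell cannot be told apart.

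The 10 genes encode rows of 10 to 18 C2H2 units (median 15) when units are counted in frame as Cys, 2 residues, Cys, 12 residues, His, 3 residues and His. Zfp160 and Zfp51 had 18 units each, and Zfp942 had 10. Their annotated coding sequences run from 1458 bases in Zfp942 to 2343 bases in Zfp51. Over the 45 pairs of members, the aligned coding sequences were 67.1% to 88.7% identical (median 73.1%). The most alike pair was Zfp942 and Zfp944, with 1291 of 1456 aligned bases identical, followed by Zfp51 and Zfp53 with 85.4% identity. The longest run of identical bases in a pair of members spanned 22 to 74 bases (median 28), so that most shared runs are shorter than a 50 bp read. The 2 runs below are shown because they are long enough for a read to come from either gene. The first is shared by Zfp942 and Zfp944 and starts at coding position 514 in both, and the second is shared by Zfp53 and Zfp52 and starts at position 1822 in Zfp53 and 1450 in Zfp52 (GENCODE M21, coding strand).
Zfp942 and Zfp944: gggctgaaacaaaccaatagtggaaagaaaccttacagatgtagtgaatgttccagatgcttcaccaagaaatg
Zfp53 and Zfp52: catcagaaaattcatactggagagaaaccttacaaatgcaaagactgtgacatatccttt
Such long runs were the exception, and the sharing between whole transcripts is given with the expression values.

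Zfp942 and Zfp944 were also alike in front of their coding part. In the RefSeq promoter windows (GRCm38.p6, 250 bases before to 50 bases after the gene start), 274 of 275 aligned bases were identical between them, with 1 run of 207 bases. Of the 10 genes 9 were found in that table and Zfp51 was not. Both genes lie head to head with another zinc finger gene of the interval, Zfp942 with Zfp943 at 88 bp between the gene starts and Zfp944 with Zfp758 at 53 bp. A link between promoter sequence and expression was not tested. The windows of Zfp942 (chr17:21962415-21962714, minus strand), Zfp944 (chr17:22361351-22361650, minus strand) and Zfp946, another gene of the interval (chr17:22423952-22424251, plus strand), are printed 5′ to 3′ because they hold the same word of 16 letters, in capitals.
Zfp942: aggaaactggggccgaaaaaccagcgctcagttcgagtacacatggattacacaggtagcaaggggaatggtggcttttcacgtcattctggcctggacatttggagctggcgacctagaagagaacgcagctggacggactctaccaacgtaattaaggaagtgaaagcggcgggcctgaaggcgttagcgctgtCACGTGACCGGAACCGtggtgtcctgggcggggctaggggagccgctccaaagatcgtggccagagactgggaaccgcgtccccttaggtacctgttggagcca
Zfp944: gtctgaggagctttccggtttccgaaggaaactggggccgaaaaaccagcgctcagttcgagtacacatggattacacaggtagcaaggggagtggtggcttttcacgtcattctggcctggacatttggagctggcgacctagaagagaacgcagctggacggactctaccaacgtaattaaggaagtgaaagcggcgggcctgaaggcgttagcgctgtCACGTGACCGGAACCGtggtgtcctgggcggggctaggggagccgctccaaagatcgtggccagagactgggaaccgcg
Zfp946: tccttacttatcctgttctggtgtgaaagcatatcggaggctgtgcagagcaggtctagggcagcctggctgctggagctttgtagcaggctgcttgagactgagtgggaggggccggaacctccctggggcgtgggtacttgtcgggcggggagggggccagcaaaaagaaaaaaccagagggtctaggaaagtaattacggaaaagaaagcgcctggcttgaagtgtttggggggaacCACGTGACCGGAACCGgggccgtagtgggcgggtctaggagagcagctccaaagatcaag
The word CACGTGACCGGAACCG, or its reverse complement CGGTTCCGGTCACGTG, occurred in 5 of 32851 RefSeq promoter windows (0.0152%), those of Zfp942, Zfp943, Zfp944, Zfp758 and Zfp946. Because the head-to-head genes share their windows, these 5 are 3 places on the chromosome, and the word is the longest run shared by Zfp944 and Zfp946, a pair chosen after the sequences were read. Its first part CACGTG, an E-box, was found in 7.15% of all windows and in 3 of the 9 windows of the members, Zfp820, Zfp942 and Zfp944. The part CCGGAA, which is the core of an ETS site and overlaps the long word, was found on either strand in 14.9% of all windows and in 5 of the 9, namely Zfp160, Zfp53, Zfp760, Zfp942 and Zfp944. The members' windows had a median of 10 CpG pairs, from 5 in Zfp52 to 22 in Zfp944, against a median of 7 over all windows. A match to letters is a description and does not show that a factor binds there.

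In wild type the 10 genes were expressed at low to moderate levels, with a median FPKM of 5.82, and none was listed at 0 in any library. Zfp942 had the highest FPKM (11.3), followed by Zfp948 (10.1) and Zfp51 (9.45). The counting intervals of these 3 overlapped between neighbours in the order, and a gap separated them from the next group. Zfp760 (6.45), Zfp944 (6.42) and Zfp52 (5.22) formed the middle of the order, again with overlapping neighbours. Below a second gap lay Zfp229 (4.0), Zfp160 (3.59), Zfp820 (2.86) and Zfp53 (2.35). These 4 could not be ordered between neighbours by their counting intervals.

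**Figure D1:**
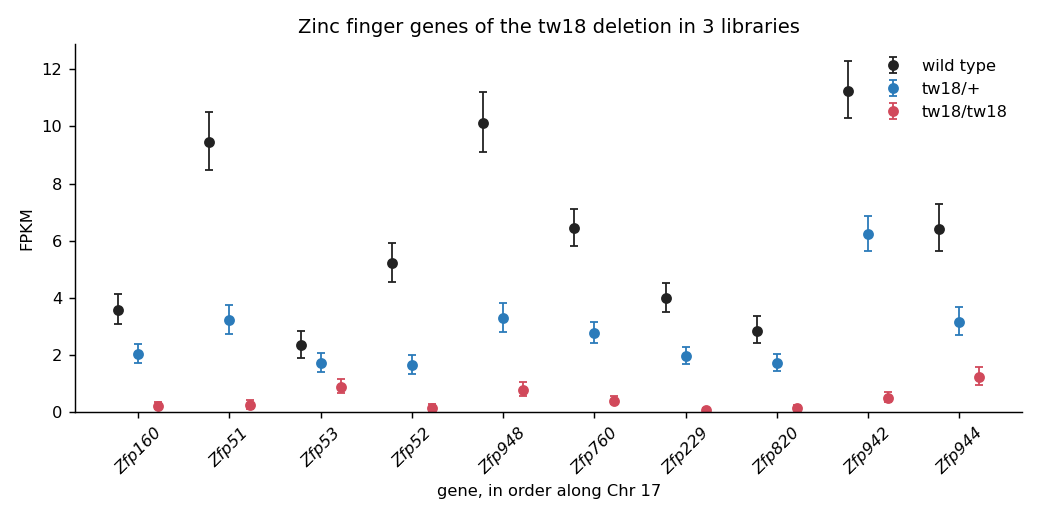
FPKM (linear axis) of the 10 zinc finger genes, in their order along Chr 17, in wild type, tw18/+ and tw18/tw18, with 1 library per genotype. Points are the deposited values and bars are 95% counting intervals; in each gene the value decreases from wild type to tw18/+ to tw18/tw18.

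All 10 genes followed the order wild type, tw18/+, tw18/tw18 in FPKM. The share of all genes in this order was not counted, so the count says nothing particular of the list. Summed over the genes, the FPKM was 61.7 in wild type, 27.9 in tw18/+ and 4.72 in tw18/tw18, or 45.1% and 7.65% of the wild-type sum. The sums rest on about 2777, 1815 and 285 fragments. The median gene kept 49.4% of its wild-type FPKM in tw18/+ and 5.78% in tw18/tw18. Over the 12849 genes that reached an FPKM of 1 in any library and were above 0 in wild type, the corresponding medians were 100.1% and 98.4%.

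In tw18/+, all 10 genes were at or under 75% of wild type, the midpoint between the levels of 2 copies and of 1 copy, where 16.2% of all genes tested lay. At or under 50% were 6 of the 10, against 5.65% of all genes. The log2 ratio to wild type ran from -1.66 in Zfp52 to -0.45 in Zfp53, with a median of -1.02. The interval of the ratio included 50% in 6 genes, lay below it in 3 and above it in 1.

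The 3 genes below the level of 1 copy, Zfp51, Zfp52 and Zfp948, were also the only ones of the 10 at or under 35% of wild type, a range that held 3.18% of all genes tested. Zfp51 had FPKM values of 9.45 in wild type and 3.23 in tw18/+, which is 34.2% (interval 28.3 to 41.5). Zfp52 had 5.22 and 1.66, which is 31.7% (25.1 to 40.4). Zfp948 had 10.1 and 3.30, or 32.6% (27.0 to 39.1). These genes lie close together on Chr 17 and on the same strand, Zfp51 at 21450374 to 21465587, Zfp52 at 21535539 to 21562601 and Zfp948 at 21567008 to 21588699 (GRCm38). Zfp53, at 21488998 to 21510473, lies between Zfp51 and Zfp52 and kept the largest share of the 10, with FPKM values of 2.35 in wild type and 1.72 in tw18/+, or 73.1% (55.2 to 97.6). Neighbours on the chromosome thus stood at opposite ends of the range in tw18/+.

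The other 6 genes had intervals that included 50%. Zfp760 (21707741 to 21725636) went from an FPKM of 6.45 to 2.78, or 43.2% (36.6 to 50.9). Zfp944 (22337989 to 22361400, minus strand) went from 6.42 to 3.17, or 49.3% (40.3 to 60.0), and Zfp229 (21730795 to 21769342) from 4.0 to 1.98, or 49.6% (40.8 to 60.3). All 3 lay at or under 50%. Zfp942 (21926960 to 21962464, minus strand) had FPKM values of 11.3 in wild type and 6.24 in tw18/+, or 55.4% (48.5 to 63.3). Zfp160 (21008903 to 21043070) had 3.59 and 2.05, or 57.1% (45.8 to 70.8), and Zfp820 (21816885 to 21845772, minus strand) had 2.86 and 1.73, or 60.3% (47.4 to 77.3). These 3 were close to Ppp2r1a, at 55.9% (53.5 to 58.3). In tw18/+ the order of levels was led by Zfp942, set off from the rest, then Zfp948, Zfp51, Zfp944 and Zfp760, and the lower group of Zfp160, Zfp229, Zfp820, Zfp53 and Zfp52. Over the 10 genes the share left in tw18/+ had a Spearman correlation of -0.62 with the wild-type FPKM, a value that enters both measures.

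In tw18/tw18, 9 of the 10 genes were at or under 25% of wild type, where 2.44% of all genes tested lay, and 8 were at or under 10%, where 1.21% lay. Genes listed at 0 make up part of the latter share, and without them 0.459% of all genes tested lay there. The 9 genes met both limits, 75% in tw18/+ and 25% in tw18/tw18, as did 1.81% of all genes. With a pseudocount of 1 FPKM, 6 of the 10 were at or under 25%. The log2 ratio ran from -5.63 in Zfp229 to -1.39 in Zfp53, with a median of -4.12.

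Zfp229 was the lowest in tw18/tw18, with an FPKM of 0.0807 from about 7 fragments, or 2.02% of wild type (0.778 to 4.08). Zfp51 had an FPKM of 0.261, or 2.76% (1.46 to 4.81), and Zfp52 had 0.148, or 2.84% (1.26 to 5.40). Together with Zfp942, at 0.510 or 4.53% (3.13 to 6.54), these were the 4 genes whose interval lay below the 8.72% left of Ppp2r1a (7.99 to 9.50). Zfp820 had an FPKM of 0.155, or 5.43% (2.59 to 9.78), and Zfp160 had 0.22, or 6.13% (3.34 to 9.92). Zfp760 had 0.409, or 6.34% (4.32 to 8.99), and Zfp948 had 0.783, or 7.74% (5.41 to 10.7). The intervals of these 4 included the share left of Ppp2r1a. The neighbours in the order of tw18/tw18 levels all had overlapping counting intervals.

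Zfp53 and Zfp944 stood apart with intervals above the share left of Ppp2r1a. Zfp53 had FPKM values of 2.35 in wild type, 1.72 in tw18/+ and 0.898 in tw18/tw18, the last from about 54 fragments, so that 38.2% of wild type was left (27.2 to 54.2). Zfp944 had 6.42, 3.17 and 1.26, the last from about 68 fragments, and 19.5% was left (14.8 to 25.7). Zfp944 therefore lay inside the 25% limit and Zfp53 outside it. Set against tw18/+ instead of wild type, the FPKM of tw18/tw18 was 52.3% for Zfp53 and 39.6% for Zfp944, against 4.07% for Zfp229 and a median of 9.86%. Over the 10 genes the shares left in the 2 mutant libraries had a Spearman correlation of 0.27, with the wild-type value common to both.

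**Figure D2:**
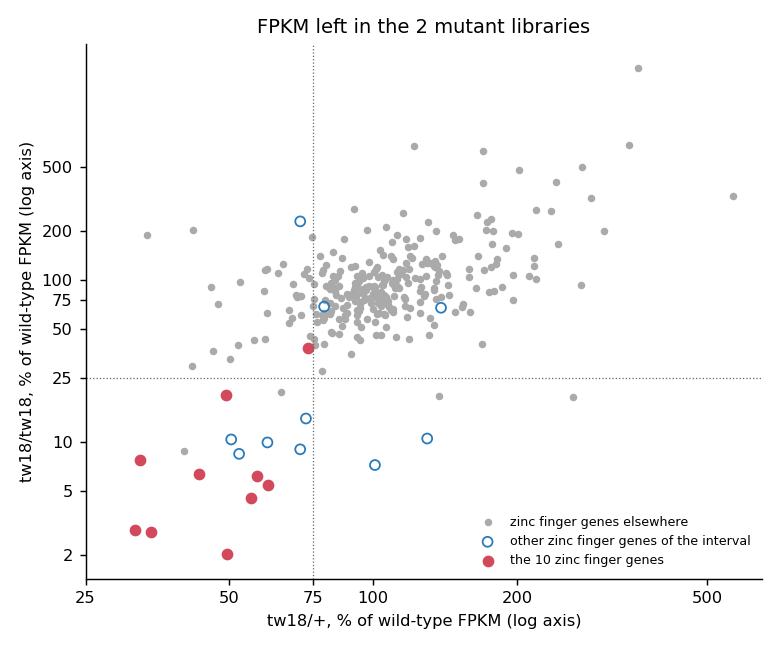
FPKM left in tw18/+ (x axis) against tw18/tw18 (y axis), each in percent of wild type on log axes, for the 10 zinc finger genes, the 10 others of the interval and 298 zinc finger genes elsewhere; dotted lines mark 75% and 25%. Of the 10 genes 9 lie in the lower left field and Zfp53 lies above the 25% line, while the genes elsewhere gather around 100% on both axes.

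Because the genes are related in sequence, the share of each gene's 50 bp words that also occurs in a transcript of another gene was measured. It was 0.116% in Zfp948, the lowest, and 10.4% in Zfp944, the highest, with a median of 2.14%. In 6 of the 10 genes no word was found in a gene outside the interval. Zfp944 shared 237 words with Zfp942, 8.67% of its own words and 4.55% of those of Zfp942, and none with a gene outside the interval. Zfp53, with the most FPKM left in tw18/tw18, shared 0.497% of its words, 11 of them with Zfp52, and none outside the interval. Zfp160 shared 3.05%, all with Afdn (Mllt4), which lies on Chr 17 at 13760539 to 13906150, outside the interval, and its FPKM left was 6.13%. Over the 10 genes the shared share and the FPKM left in tw18/tw18 had a Spearman correlation of -0.20. The most shared gene and the least shared gene thus did not mark the ends of the range in tw18/tw18. Only exact matches between reference transcripts were counted, so words alike but for a few bases are left out. How far reads were divided between related genes was not tested.

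**Figure D3:**
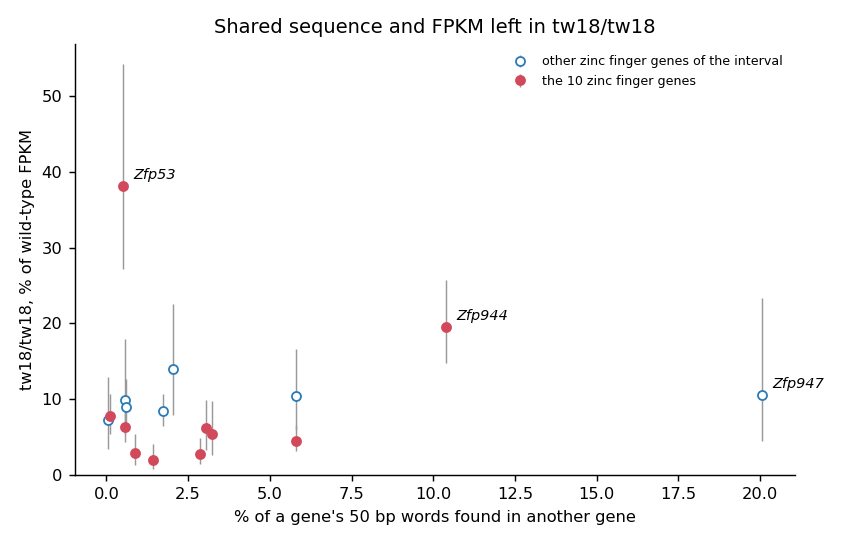
Share of a gene's 50 bp words found in another gene (x axis, percent) against the FPKM left in tw18/tw18 (y axis, percent of wild type, with 95% counting intervals) for 17 zinc finger genes of the interval; Zfp677, Zfp213 and Zfp13 are left out. Of the 17 plotted, Zfp53 stands highest at 38.2% with 0.497% of its words shared. Zfp947 has the most shared words (20.05%) with 10.5% of FPKM left. The genes left out stood above Zfp53, at 67.5% for Zfp677, 231% for Zfp213 and 68.7% for Zfp13. They shared 0.0363%, 0% and 0% of their words with genes that do not overlap them.

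Among the 10 other zinc finger genes of the interval, 9 entered the set of genes tested, of which 6 were at or under 75% in tw18/+ and 7 at or under 25% in tw18/tw18. Their medians were 70.4% and 10.4%. Zfp946, with the highest wild-type FPKM of the 20 genes, had 14.8 in wild type, 7.77 in tw18/+ and 1.25 in tw18/tw18, or 52.4% (46.3 to 59.3) and 8.44% (6.46 to 10.7). Zfp758, the head-to-head neighbour of Zfp944, had 3.21, 1.62 and 0.333, or 50.5% and 10.4%. Zfp943, the head-to-head neighbour of Zfp942, had 2.60, 1.88 and 0.362, or 72.3% and 14.0%, and Zfp945 had 3.12, 2.195 and 0.281, or 70.4% and 9.01%. In both head-to-head pairs the members, Zfp942 and Zfp944, had the higher wild-type FPKM.

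The distal end of the interval differed from most of its zinc finger genes, but some rows further inside also kept a large share. Zfp13, at 23575844 to 23599487 next to the mapped breakpoint, had FPKM values of 10.9 in wild type, 8.58 in tw18/+ and 7.46 in tw18/tw18, or 79.0% (67.5 to 92.0) and 68.7% (58.4 to 80.4). Further genes of the interval were named after their values were seen. Zfp677, at 21383748 to 21399265, had 0.398, 0.552 and 0.269, with 67.5% left in tw18/tw18 (30.8 to 145). Gm4944, at 22197265 to 22225659, had 10.7, 7.52 and 5.55, with 51.6% left in tw18/tw18. Vmn2r-ps129, at 22992706 to 23008970, had 1.54, 1.90 and 1.27, with 82.0% left. Zfp213, at 23556767 to 23564238, had 1.57, 1.11 and 3.63, or 70.4% and 231% (173 to 318), and 52.3% of its words were also found in genes that overlap it. Zfp40, at 23173869 to 23193252, had 1.95, 1.97 and 0.141, or 101% (79.1 to 130) and 7.20% (3.38 to 12.9), and Zfp947 had 1.31, 1.70 and 0.137, or 130% and 10.5%. Going distally, Zfp40 was thus the last zinc finger gene at a low level in tw18/tw18, and 363.5 kb separate its end from Zfp213. The distal breakpoint was placed only approximately from the density of DNA reads, and where it lies between these genes was not tested.

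**Figure D4:**
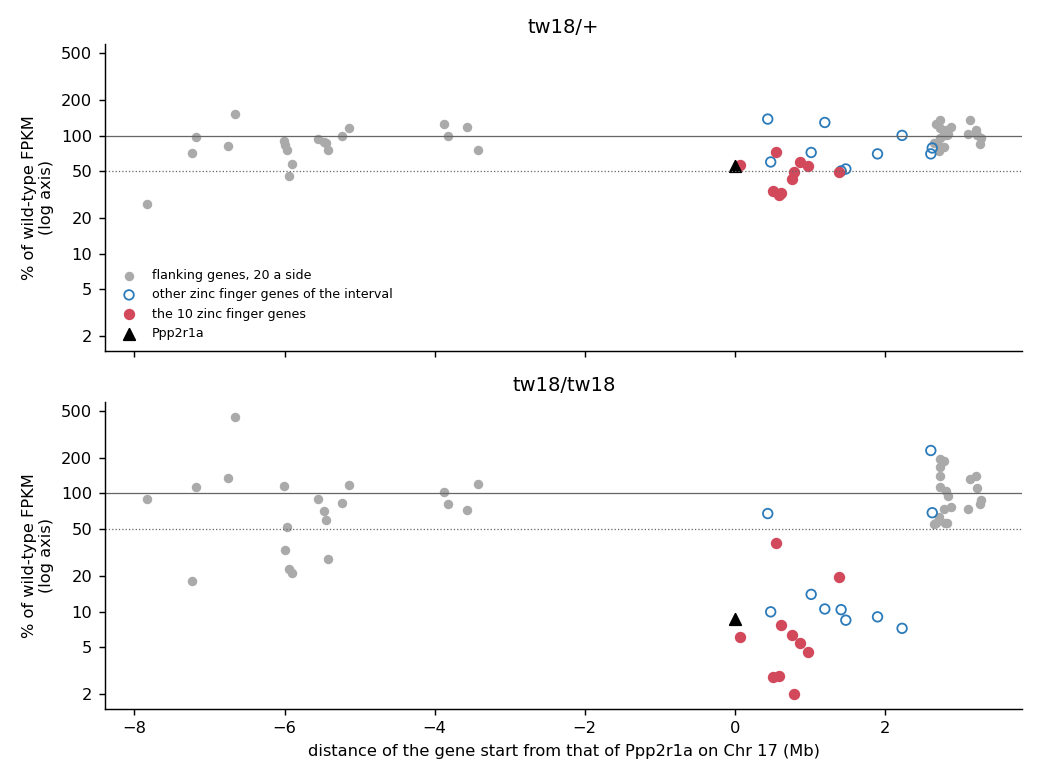
FPKM left in percent of wild type (log axis) in tw18/+ (upper panel) and tw18/tw18 (lower panel) against the distance of the gene start from that of Ppp2r1a on Chr 17 in Mb, for the 10 zinc finger genes, the other zinc finger genes of the interval, Ppp2r1a and 20 flanking genes a side. In the lower panel the 10 genes lie between 2.02% and 38.2%. The flanking genes lie between 54.8% and 197% on the distal side. On the proximal side they lie between 18% and 441%, some of them within the range of the 10 genes.

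Outside the interval the levels were near wild type on the distal side and more spread on the proximal side. The 20 nearest distal genes tested had a median of 103% in tw18/+ and 92.3% in tw18/tw18 (54.8% to 197%). The 20 nearest proximal genes had medians of 87.4% and 82.1% (18% to 441% in tw18/tw18). Some of these 20 lay within the tw18/tw18 range of the 10 zinc finger genes, although outside the deletion. They were Tcte2 (18%), 2210404J11Rik (20.98%), Gm3435 (22.98%), Pdcd2 (28.01%) and Phf10 (32.9%), named after their values were seen. The rest of the 20 lay above that range. The nearest gene on the distal side, Zscan10, a zinc finger factor of pluripotent cells, had an FPKM of 58.4, 51.0 and 32.0, or 87.3% and 54.8%. The nearest on the proximal side, Lnpep, an aminopeptidase, had 6.68, 5.09 and 8.0, or 76.1% and 120%. Besides the 20 genes with Zfp symbols and Ppp2r1a, the interval held 36 rows of vomeronasal and formyl peptide receptors and 5 other rows. Of the receptor rows, 34 were listed at 0 in all 3 libraries. The genes with Zfp symbols and Ppp2r1a therefore carried most of what was measured from the interval. Among the other rows, 3110052M02Rik and 2210404O09Rik lie where GENCODE M21 places Zfp983 and Zfp995. Counts by symbol leave them out. Left in tw18/tw18 were 46.6% of 3110052M02Rik, from a wild-type FPKM of 0.282, and 14.4% of 2210404O09Rik.

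Zinc finger genes elsewhere in the genome lay near the values of all genes in both mutant libraries. Of 298 such genes tested, 11.4% were at or under 75% in tw18/+ and 1.34%, or 4 genes, at or under 25% in tw18/tw18, close to the 16.2% and 2.44% of all genes. Their medians were 103% and 89.8%. The 4 genes were Zfp286 on Chr 11 (8.83%), Zfp941 (18.9%), Zfp712 (19.2%) and Zfp773 (20.4%), named after their values were seen.

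The partners of KRAB zinc finger proteins were not low in the way of the deleted genes, but their median in tw18/tw18 was below that of all genes. Of the 19 genes listed for this silencing machinery 18 were found, of which 1 was at or under 75% in tw18/+ and none at or under 25% in tw18/tw18, where 16.2% and 2.44% of all genes lay. With so few genes these counts set the list apart in neither direction. The list's medians were 99.9% and 80.0%, against 100.1% and 98.4% over all genes. Trim28, the corepressor itself, had FPKM values of 316 in wild type, 327 in tw18/+ and 219 in tw18/tw18, or 104% and 69.4%. Setdb1, the methyltransferase, had 28.6, 28.5 and 27.8, or 99.6% and 96.9%. Smarcad1, a chromatin remodeller, was the gene at or under 75% in tw18/+, with 68.4% there and 67.8% in tw18/tw18. Chd3, a remodeller of the NuRD complex, was the 1 gene of the 18 at or above 200% in tw18/tw18, with an FPKM of 4.03, 5.23 and 12.4. Of all 12849 genes tested, 1759 lay there.

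Of 9 KRAB zinc finger genes elsewhere with a described target, 1 was at or under 75% in tw18/+ (Zfp458, 71.6%) and none at or under 25% in tw18/tw18, counts near the 16.2% and 2.44% of all genes that say nothing particular of the list. Its medians were 113% and 109%. Zfp57, which keeps the methylation of imprinted regions, had FPKM values of 8.99 in wild type, 15.8 in tw18/+ and 21.5 in tw18/tw18, or 176% and 239%. Zfp568, a repressor of a placental Igf2 transcript, had 23.1, 21.3 and 20.9, and Zfp809, which silences retroviruses, had 22.1, 25.1 and 26.0. In wild type the 10 genes of the interval were lower than Zfp568 and Zfp809, but not lower than the whole list. Zfp57 was below the highest of the 10 (Zfp942, 11.3), and Zfp458, at 1.45, was below the lowest (Zfp53, 2.35).

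Other parts of the libraries moved alongside. The summed FPKM of 10 epiblast markers was 2405 in wild type, 2612 in tw18/+ and 1346 in tw18/tw18, with none at 0, and that of 10 visceral endoderm markers was 800, 775 and 984. The 11 markers of maternal decidua were above 0 in every library, with sums of 1789, 317 and 876, of which Prl8a2 made up 1504, 155 and 377. Of these 11, 9 were higher in tw18/tw18 than in wild type, among them Hoxa10 with 7.64, 11.8 and 32.9. At least 2 times wild type were 7 of the 11, and 1759 of all 12849 genes tested. Sums for 10 endothelial markers were 58.7, 46.7 and 115, with 1 marker at 0 in wild type. The 5 of 6 definitive erythroid markers found gave 52.2, 54.5 and 175, with 2 at 0 in each library. In this sum the alpha-globin genes moved in opposite directions, Hba-a1 with 52.2, 27.1 and 0.007 and Hba-a2 with 0.0201, 26.9 and 127. How fragments were divided between these genes was not tested. The 7 of 8 immune markers gave 15.1, 8.73 and 22.6, with 1 to 3 at 0. The 8 markers listed for extra-embryonic ectoderm gave 99.7, 79.1 and 82.5, none at 0, and Eomes made up 77.1, 58.0 and 37.0 of these. The study counts Eomes among the mesoderm control genes and places SOX3, also on the list (8.94, 8.61 and 8.69), in the anterior epiblast. The sum therefore does not stand for extra-embryonic tissue alone. The other 6 of the 8 were at least 2 times their wild-type FPKM in tw18/tw18, against 1759 of 12849 genes tested. Tfap2c was among them, with 6.36, 5.99 and 18.4. The epiblast sum in tw18/tw18 was 56.0% of wild type, above the 7.65% left of the 10 zinc finger genes. The part of these tissues in the FPKM left in tw18/tw18 was not tested.

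Among 8412 other genes with a wild-type FPKM of at least 5, the 5 whose shares left lay nearest to the medians of the 10 genes, by the straight distance over both libraries in percentage points, were led by Zfp946 at 4.01. The next were Tmem238 (4.43), Wdr86 (4.59), Apln (5.94), a secreted ligand of the apelin receptor, and Lefty2 (6.11), a secreted inhibitor of Nodal. Zfp946 lies in the interval and the other 4 do not. Lefty2 had FPKM values of 7.50 in wild type, 4.0 in tw18/+ and 0.784 in tw18/tw18, or 53.4% and 10.4%. Shares near those of the deleted genes were thus also seen in genes that the deletion does not contain.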

How the data were processed

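RNA from 3 samples, 1 per genotype, was analysed. Total RNA was turned into libraries with the TotalScript kit in 14 PCR cycles and read as 50 bp pairs. The authors mapped the reads to mm10 (TopHat2 and Bowtie 1.0.0 per the submitters' processing notes) and deposited FPKM from Cuffdiff (Cufflinks 2.2.1 per the same notes), and no count table was used. The annotation and the library normalization were not given in the sources used here.

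Values were used as deposited, without a pseudocount, as percent of wild type. Of 23421 genes, 12849 reached an FPKM of 1 in any sample and were above 0 in wild type, and these are the genes tested. Fragments were estimated from the FPKM spacing of 78, 117 and 80 low values, of which 82.9% to 86.3% lay within 0.2 of a whole number, with 150 bp allowed for fragment length. Positions came from GENCODE M21 (GRCm38), completed with RefSeq, for 23283 genes. Named were the members, Ppp2r1a, the 5 other zinc finger genes of the interval with the highest wild-type FPKM, the nearest expressed gene on each side, the 5 genes of nearest pattern and up to 4 examples per list. Further genes are marked where they were chosen after their values were seen. The members and lists were chosen with earlier results of these data known. Alternatives were pseudocounts, scalings, filters, the reference library and the shared-sequence limit. Python 3.11.15, numpy 2.4.6, pandas 2.3.3, scipy 1.17.1, Biopython 1.88 and matplotlib 3.10.9 were used. The ratios were also computed on simulated counts with planted changes. These counts held counting error alone, so they check the calculation and not the spread between embryos.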

Additional observations from a re-analysis of the deposited data

How the results depend on the processing

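No paired analysis was possible because each genotype has 1 sample, and no replicate could be left out for the same reason. All 110 values of single genes recomputed under the alternatives kept their direction, which could hardly have come out otherwise. A pseudocount cannot reverse a direction. Rescaling or centring shifts a log2 ratio by 0.21 or less, while the smallest ratio was -0.45, in Zfp53 in tw18/+. The order of the 3 libraries already sets the direction against tw18/+. With only genes that reached an FPKM of 5 in any sample, 6 of the 10 zinc finger genes remained, all 6 at or under 75% in tw18/+ with a median of 38.7%, while 10.3% of all genes lay at or under 75% in tw18/+ and 0.660% at or under 25% in tw18/tw18. A pseudocount of 1 FPKM lowered the number of the 10 genes at or under 25% in tw18/tw18 from 9 to 6 and that at or under 75% in tw18/+ from 10 to 9. It raised the median left in tw18/tw18 to 20.3% and lowered the share of all genes at or under 25% to 0.342%, which follows from adding 1 to values mostly under 1. With tw18/+ as the reference the median left in tw18/tw18 was 9.86%, and without a filter 6.67% of all genes lay at or under 25% there. Rescaling to equal FPKM sums, which shifts each log2 ratio of tw18/tw18 by 0.21, or centring moved no single gene past its counting interval. A limit of 20% on shared words kept all 10 genes and tested nothing, because the highest share among them was 10.4%. A limit of 5%, chosen after seeing the data, kept 8, with 8 at or under 75% in tw18/+, 7 at or under 25% in tw18/tw18 and medians of 46.4% and 5.78%. Depth limits the lowest values most, since Zfp229 and Zfp52 rest on about 7 and 9 fragments in tw18/tw18.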
